A study of Mus musculus with 157 samples.

Results

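Interferon-stimulated genes are the genes that cells switch on when interferon reaches its receptor. The 38 genes described here were chosen by name, from a list of 38 gene symbols drawn up with earlier results of these data known. All 38 were found among the 24940 genes of each of 8 expression tables. The cells were mouse macrophages grown from bone marrow with M-CSF, exposed to particles at 250 μg/mL or to PBS, and sequenced as poly-A RNA. MSUc are monosodium urate crystals, the crystals of gout, and CPPD are calcium pyrophosphate dihydrate crystals, those of pseudogout. Silica nanoparticles and aluminum hydroxide salt (alum) were the other particles. Values are read as TPM, a share of all transcripts in a library that is scaled for transcript length. This reading is an assumption: the deposited headers name no unit, and library sums ran from 528079 to 569594. Changes are log2 ratios from limma on log2(TPM + 1), which understates changes of low genes, and a gene is said to have risen or fallen where its two-sided p, adjusted over all genes tested by the Benjamini-Hochberg method, was under 0.05.

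Of the 115 libraries, the time course gave 2 at each of 10 and 30 minutes and 1, 2 and 5 hours for MSUc and for PBS. The particle experiment held C57BL/6 macrophages with CPPD (3 libraries), silica (2), alum (2, where the labels list 3 samples and the third was not analysed here), MSUc (3) or PBS (3). The Tfe3 experiment held Tfe3KO and Tfe3WT macrophages with CPPD, silica, MSUc or PBS (3 libraries each). MSUc and PBS were also given to Tfeb-Tg macrophages and TfebWT (3 libraries each, TfebWT PBS 2), to Bhlhe40-/- and Bhlhe41-/- macrophages and their WT (2 each), and to Ampkα1-/- macrophages and congenic WT (3 each). The last 2 groups came from mice aged 7 to 8 weeks, and their medium was RPMI with M-CSF at 5 ng/mL (DMEM with 16 ng/mL for C57BL/6, Tfeb-Tg and both Bhlhe lines; the labels give no medium for the Tfe3 line). Drug experiments set the DOT1L inhibitor SGC0946 (1 μM from day 0) or metformin, at a dose the labels do not give, against vehicle, in MSUc and in PBS (3 libraries each, SGC0946 PBS 2). The labels give the exposure time for the time course alone, name no promoter for the Tfeb transgene, and do not say whether libraries of a group came from separate mice or cultures, so p-values measure the spread between these libraries.

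In the type I interferon pathway, double-stranded RNA, cytosolic DNA or bacterial products reach sensors that activate IRF3 and IRF7, which turn on the interferon genes. Secreted interferon binds its receptor, the kinases JAK1 and TYK2 phosphorylate STAT proteins, and these join IRF9 in a complex that binds the interferon-stimulated response element (ISRE) in the promoters of the target genes. Interferon gamma acts through STAT dimers at GAS elements, which many of the GTPase genes carry. Macrophages make and answer interferon, and keep some of these genes on at rest.

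Promoters of members that the results below turn on are shown here since the response element is the feature through which the family is known. The windows run from 250 bases before the RefSeq transcription start (GRCm38.p6, the build mm10) up to it, and capitals mark each match to the core GAAANNGAAA on either strand. Isg15 (chr4:156199424-156200818, minus strand) is shown from chr4:156200819-156201068, Rsad2 (chr12:26442743-26456452, minus strand) from chr12:26456453-26456702, Ifit1 (chr19:34640889-34650009, plus strand) from chr19:34640639-34640888, Cxcl10 (chr5:92346639-92348889, minus strand) from chr5:92348890-92349139 and Gbp2 (chr3:142620663-142638008, plus strand) from chr3:142620413-142620662.
Isg15: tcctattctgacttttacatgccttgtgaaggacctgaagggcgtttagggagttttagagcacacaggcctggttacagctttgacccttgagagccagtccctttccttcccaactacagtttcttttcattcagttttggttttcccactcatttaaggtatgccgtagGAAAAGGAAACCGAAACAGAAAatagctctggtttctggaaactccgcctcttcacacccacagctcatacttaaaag
Rsad2: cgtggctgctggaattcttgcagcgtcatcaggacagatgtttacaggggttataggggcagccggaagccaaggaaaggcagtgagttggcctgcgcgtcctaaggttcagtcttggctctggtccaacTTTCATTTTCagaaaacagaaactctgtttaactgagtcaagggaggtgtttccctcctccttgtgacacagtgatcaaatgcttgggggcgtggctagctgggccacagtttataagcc
Ifit1: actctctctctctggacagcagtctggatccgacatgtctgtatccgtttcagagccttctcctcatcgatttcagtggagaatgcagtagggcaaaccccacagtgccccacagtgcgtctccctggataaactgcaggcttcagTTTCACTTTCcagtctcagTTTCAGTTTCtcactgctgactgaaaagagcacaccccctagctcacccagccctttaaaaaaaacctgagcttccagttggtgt
Cxcl10: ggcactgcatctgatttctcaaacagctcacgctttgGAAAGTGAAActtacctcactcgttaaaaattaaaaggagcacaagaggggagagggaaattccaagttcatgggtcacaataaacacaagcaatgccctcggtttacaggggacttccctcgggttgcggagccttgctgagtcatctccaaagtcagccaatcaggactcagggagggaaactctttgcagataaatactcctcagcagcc
Gbp2: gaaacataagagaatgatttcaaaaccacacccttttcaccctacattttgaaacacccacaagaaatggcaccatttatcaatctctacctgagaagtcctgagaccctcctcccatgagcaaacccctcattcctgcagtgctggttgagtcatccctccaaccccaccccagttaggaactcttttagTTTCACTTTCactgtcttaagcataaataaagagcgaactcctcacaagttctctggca

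Isg15 holds 3 overlapping cores between positions -78 and -57 from the start, Ifit1 holds 2 (-104 to -95 and -85 to -76), and Rsad2 (-120 to -111), Cxcl10 (-213 to -204) and Gbp2 (-59 to -50) hold 1 each. A promoter window of 300 bases, to 50 bases past the start, was listed for 29 of the 38 members; Mx1, Mx2, Oas2, Usp18, Dhx58, Zbp1, Iigp1, Parp14 and Rtp4 had none. The core GAAANNGAAA was found in 18 of the 29 (62.1%) and in 3.99% of all 27025 genes with a window. The GAS letters TTCNNNGAA, searched on both strands, were in 7 of 29 (24.1%: Bst2, Gbp5, Gbp7, Ifi35, Ifit2, Igtp and Oas1a) and in 9.55% of all genes. CACGTG, letters that E-box factors such as TFEB and TFE3 can bind, were in 0 of 29 and in 8.09% of all genes. A match describes letters in this window and is not a measured binding site.

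At rest, that is in PBS with all genotypes and drug treatments included, the members spanned a wide range of levels. Over the 47 PBS libraries of all experiments, Bst2, which encodes tetherin, had the highest median (114 TPM, range 55.9 to 673). The next medians were those of Oas3 (33.98 TPM), Irgm1 (33.3 TPM), Parp14 (32.6 TPM) and Irf9 (29.7 TPM), whose ranges overlap and whose order differed between groups. By group mean Bst2 was highest in 14 of the 19 PBS groups, and Irf7 in the 5 of the time course, with Bst2 second. Oas3 was second in 6 groups, Irgm1 in 4, and Parp14 and Tap1 in 2 each. The lowest medians were those of Iigp1 (0.312 TPM), Mx2 (0.781 TPM), Ifi44 (1.09 TPM) and Gbp5 (1.30 TPM). Of the 38 members, 22 reached their highest level of all 115 libraries in 1 of the CPPD libraries of the particle experiment and 9 in 1 of the CPPD libraries of the Tfe3 experiment. These are libraries of different experiments, whose levels also differ by experiment.

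Over the same PBS libraries the antiviral effectors ranged as follows, lowest to highest library in TPM: Cmpk2 0.639 to 22.4, Ifit1 0.242 to 33.5, Ifit2 0.379 to 27.7, Ifit3 0.227 to 35.3, Mx1 0 to 15.7 and Mx2 0 to 5.50; and Oas1a 6.68 to 56.4, Oas2 0.945 to 33.4, Oas3 1.78 to 87.4, Oasl1 0.339 to 38.5, Oasl2 4.39 to 70.3, Rsad2 0.361 to 34.2 and Trim30a 15.7 to 49.6. The GTPases ranged likewise, with Gbp2 3.81 to 36.4, Gbp3 0.987 to 12.3, Gbp5 0.0450 to 3.56, Gbp7 0.353 to 6.18, Ifi47 4.65 to 29.5, Igtp 5.93 to 22.1, Iigp1 0 to 4.85 and Irgm1 25.4 to 81.7. The ISG15 pair had Isg15 1.93 to 47.8 and Usp18 1.59 to 24.02, the sensors had Ddx58 5.78 to 20.6, Dhx58 6.30 to 34.7, Ifih1 4.46 to 14.96 and Zbp1 0.413 to 32.6, and the transcription factors had Irf7 3.98 to 1035, Irf9 15.8 to 55.6 and Stat2 14.2 to 32.6. Cxcl10 had 0.218 to 24.4 and Tap1 12.5 to 84.9 TPM, and the others had Ifi35 11.9 to 35.8, Ifi44 0.0420 to 10.4, Parp14 11.1 to 56.6, Rtp4 2.79 to 91.7 and Xaf1 0.736 to 22.3. In most members resting levels thus varied over several fold between these libraries, which include knockout, transgenic and drug-treated cells. Comparisons below are made within an experiment.

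Libraries held 2119000 to 22114000 reads as recovered from the tables (median 10115000, rounded). All 8 macrophage markers (Adgre1, Csf1r, Cd68, Cd14, Itgam, Fcgr1, Lyz2, Mertk) were at or above 1 TPM in every library. The targeted gene was lower at rest in Tfe3KO (Tfe3 66.7 to 69.97 TPM, against 94.2 to 104.0 TPM in Tfe3WT) and Bhlhe40-/- (Bhlhe40 5.59 to 6.93 TPM, against 57.8 to 76.1 TPM in WT), and higher in Tfeb-Tg (Tfeb 75.1 to 86.5 TPM, against 43.7 to 44.4 TPM in TfebWT). Bhlhe41 was lower at rest by a narrow margin (46.3 to 49.77 TPM in Bhlhe41-/-, against 49.78 to 55.9 TPM in WT) and clearly lower with MSUc (49.5 to 50.3 TPM in Bhlhe41-/-, against 90.1 to 94.9 TPM in WT). Prkaa1, the gene of AMPKα1, was not lower in the libraries labelled Ampkα1-/- (24.3 to 27.3 TPM, against 23.1 to 25.4 TPM in WT). With MSUc, Tfe3 itself was no lower in Tfe3KO (84.9 to 87.3 TPM, against 79.7 to 83.3 TPM in Tfe3WT). These libraries are therefore called libraries labelled Ampkα1-/-, Bhlhe41-/- or Tfe3KO, and the directions given for them rest on those labels. In bulk RNA, fewer cells of a type and less RNA per cell cannot be told apart.

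CPPD crystals raised nearly all of the 38 members, which were chosen with earlier results of these data known. In the particle experiment all 38 members rose with CPPD relative to PBS and 0 fell, where 52.4% of all genes tested changed in either direction and 16.6% rose. In Tfe3WT macrophages 37 rose and 0 fell, where 60.2% of genes changed and 18.5% rose; the other was Iigp1. The median change of the members was 2.07 and 1.94, while the median of all genes was -0.20 and -0.21. For all 38 members, every CPPD library lay above every PBS library in both experiments, but the share of all genes separated in this way is not given here. These 38 and 37 calls held under each of 11 and 12 alternatives, with any 1 library left out among them. Across the 38 members the changes in the 2 experiments had a Pearson r of 0.971 and a Spearman rho of 0.956; these are values across genes, which are not independent.

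Isg15, a ubiquitin-like protein that is joined to other proteins, had 194, 229 and 186 TPM in CPPD libraries, against 31.3, 13.7 and 15.1 TPM in PBS libraries (log2 change 3.37, SE 0.40, adjusted p = 2.6e-05). Usp18, the enzyme that removes Isg15 and dampens interferon receptor signalling, had 67.6, 71.9 and 62.8 TPM in CPPD libraries, against 18.7, 5.70 and 7.62 TPM in PBS libraries (log2 change 2.71, SE 0.42, adjusted p = 0.000233). In both genes the lowest CPPD library was above the highest PBS library, which was PBS 1. In Tfe3WT macrophages Isg15 had 108, 156 and 73.8 TPM in CPPD libraries, against 10.3, 12.2 and 5.59 TPM in PBS libraries (log2 change 3.45, SE 0.27, adjusted p = 1.33e-09). The medians of this pair of genes were 3.04 in the particle experiment and 2.95 in Tfe3WT.

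Among the 14 antiviral effectors the median change was 2.36 in the particle experiment and 2.33 in Tfe3WT. Rsad2, which encodes viperin, an enzyme that makes a chain-terminating nucleotide, had 304, 379 and 230.4 TPM in CPPD libraries, against 33.5, 6.94 and 7.83 TPM in PBS libraries (log2 change 4.48, SE 0.55, adjusted p = 3.8e-05). Its neighbour Cmpk2, a mitochondrial nucleotide kinase that supplies it, had 125, 165 and 112 TPM in CPPD libraries, against 22.4, 5.46 and 5.16 TPM in PBS libraries (log2 change 3.77, SE 0.56, adjusted p = 0.000163). Both genes were separated from PBS in every library, and PBS 1 was the highest PBS library of each. Ifit1, Ifit2 and Ifit3, which bind foreign RNA and block its translation, changed by 4.10, 4.21 and 3.04 on the log2 scale. Oas1a, one of the synthetases that make the activator of RNase L, had 69.5, 69.5 and 72.1 TPM in CPPD libraries, against 34.7, 27.4 and 26.4 TPM in PBS libraries (log2 change 1.24, SE 0.12, adjusted p = 4.59e-06). All 3 CPPD libraries lay close together, above PBS. The other synthetases Oas2 and Oas3 changed by 1.22 and 1.62, their relatives Oasl1 and Oasl2 by 2.93 and 1.93, and Mx1 and Mx2, dynamin-like GTPases that trap viral particles, by 2.73 and 2.00. Reads of the Ifit, Oas, Mx, Gbp and Irgm families may be shared between close paralogues, and how they were divided is not given in the sources used here, so single members of these families are less certain. Trim30a, a TRIM protein that restrains Toll-like receptor signalling in mice, changed by 1.83. Bst2, which tethers budding virus to the cell surface, had the smallest change of the group (0.50), with 168, 196 and 209 TPM in CPPD libraries, against 151, 125 and 127 TPM in PBS libraries.

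The 8 interferon-inducible GTPases, which attack the vacuoles of intracellular pathogens, had the second largest role-group median with CPPD in the particle experiment (2.99) and 2.41 in Tfe3WT. The guanylate-binding protein Gbp2 had 110.0, 130.3 and 92.95 TPM in CPPD libraries, against 7.74, 4.22 and 4.93 TPM in PBS libraries (log2 change 4.10, SE 0.38, adjusted p = 4.32e-06). Gbp5, which promotes inflammasome assembly, had 51.5, 81.2 and 42.6 TPM in CPPD libraries, against 1.92, 0.587 and 0.905 TPM in PBS libraries (log2 change 4.79, SE 0.51, adjusted p = 1.17e-05). Gbp5 thus had the largest log2 change of all 38 members, from a resting level near 1 TPM. Gbp3 and Gbp7 changed by 3.58 and 3.03. Among the immunity-related GTPases, Irgm1, a regulator of the others, had 195, 194 and 175 TPM in CPPD libraries, against 58.9, 34.95 and 38.7 TPM in PBS libraries (log2 change 2.10, SE 0.21, adjusted p = 8.46e-06). Ifi47 and Igtp changed by 2.95 and 2.06. Iigp1, which coats the parasite vacuole, had 6.64, 7.41 and 5.15 TPM in CPPD libraries, against 2.35, 0.472 and 0.621 TPM in PBS libraries (log2 change 1.88, SE 0.46, adjusted p = 0.00473). It was the one member without a call in Tfe3WT, with 3.42, 4.94 and 1.63 TPM in CPPD libraries, against 0.827, 0.969 and 0.293 TPM in PBS libraries (log2 change 1.30, SE 0.71, adjusted p = 0.124), at levels that rest on few reads. With the replicate number as a block within each genotype, or with the 2 groups fitted alone, it was called too (38 of 38); the first was chosen after seeing the data.

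The sensors of foreign nucleic acid rose too. Zbp1, which senses Z-form nucleic acid and can start necroptosis, had 61.7, 68.2 and 60.8 TPM in CPPD libraries, against 9.75, 5.51 and 6.12 TPM in PBS libraries (log2 change 3.02, SE 0.30, adjusted p = 7.34e-06). Ddx58 (RIG-I), a sensor of viral RNA ends, had 67.4, 68.00 and 54.7 TPM in CPPD libraries, against 20.5, 13.04 and 15.01 TPM in PBS libraries (log2 change 1.92, SE 0.21, adjusted p = 1.51e-05). Both stood clear of PBS, and Zbp1 moved furthest of the 4 sensors. Ifih1 (MDA5), which senses long double-stranded RNA, and Dhx58 (LGP2), a regulator of the other sensors, changed by 1.81 and 1.36. The transcription factors had the smallest role-group median (1.56, and 1.31 in Tfe3WT). Stat2 had 69.9, 82.4 and 66.4 TPM in CPPD libraries, against 32.6, 18.6 and 22.7 TPM in PBS libraries (log2 change 1.56, SE 0.22, adjusted p = 0.000118). Irf7, the factor that amplifies interferon production, had 113, 131 and 119 TPM in CPPD libraries, against 58.5, 28.9 and 31.97 TPM in PBS libraries (log2 change 1.64, SE 0.29, adjusted p = 0.000607). Irf9, the DNA-binding partner of Stat2, changed least of all 38 members, with 56.8, 51.96 and 49.2 TPM in CPPD libraries, against 44.1, 32.7 and 37.00 TPM in PBS libraries (log2 change 0.47, SE 0.12, adjusted p = 0.00716).

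Cxcl10, a chemokine that draws T cells, had 128, 187 and 120.4 TPM in CPPD libraries, against 24.4, 4.04 and 4.06 TPM in PBS libraries (log2 change 4.05, SE 0.72, adjusted p = 0.000606). Tap1, a subunit of the peptide transporter for class I antigen presentation, had 65.1, 85.97 and 69.3 TPM in CPPD libraries, against 29.8, 22.1 and 24.8 TPM in PBS libraries (log2 change 1.49, SE 0.20, adjusted p = 7.98e-05). In the remaining genes, Parp14, an ADP-ribosyltransferase, had 229, 237 and 189 TPM in CPPD libraries, against 56.6, 32.3 and 43.4 TPM in PBS libraries (log2 change 2.31, SE 0.22, adjusted p = 5.57e-06), and it was far above PBS in each CPPD library. Ifi35 had 73.4, 71.5 and 73.1 TPM in CPPD libraries, against 30.2, 22.7 and 20.6 TPM in PBS libraries (log2 change 1.55, SE 0.15, adjusted p = 5.85e-06). Ifi44, Xaf1 (a partner of the apoptosis inhibitor XIAP) and Rtp4 (a receptor transporter protein) changed by 2.08, 1.86 and 1.71.

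In Tfe3WT macrophages Parp14 had 175, 211 and 138 TPM in CPPD libraries, against 40.7, 49.7 and 39.4 TPM in PBS libraries (log2 change 1.98, SE 0.13, adjusted p = 8.35e-11). Gbp5 had 37.2, 60.3 and 32.04 TPM in CPPD libraries, against 0.428, 2.38 and 1.30 TPM in PBS libraries (log2 change 4.25, SE 0.46, adjusted p = 1.32e-07), and Rsad2 had 185, 333 and 109.6 TPM in CPPD libraries, against 4.09, 19.5 and 5.32 TPM in PBS libraries (log2 change 4.45, SE 0.42, adjusted p = 2.34e-08). CPPD 2 and PBS 2 were the highest libraries of their groups for Rsad2, and PBS 2 stayed below every CPPD library. The other members with the smallest p of their role group there were Trim30a (1.58), Irgm1 (1.89), Usp18 (2.44), Zbp1 (2.60), Ifih1 (1.55), Stat2 (1.31), Irf7 (1.44), Cxcl10 (3.95), Tap1 (0.97) and Ifi35 (1.29), given as log2 changes, and all of these rose. The largest difference between the 2 experiments in a member's change was 1.04, for Gbp3. Neutrophil marker sums were 35.1 to 66.3 TPM with CPPD and 47.5 to 111 TPM with PBS in the particle experiment, and macrophage marker sums were 20134 to 22491 TPM with CPPD and 28309 to 31126 TPM with PBS; their part in the result was not tested. Over all libraries of the series neutrophil sums were 1.57 to 1925 TPM, with 1 of the 7 genes, Ly6g, below 1 TPM throughout. T cell sums were 1.01 to 17.7 TPM, with 3 of 5 genes (Cd3e, Cd3d, Cd8a) below 1 TPM in every library and 1 at or above 1 TPM in every library. NK sums were at most 1.05 TPM, with all 3 genes below 1 TPM throughout.

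**Figure D1:**
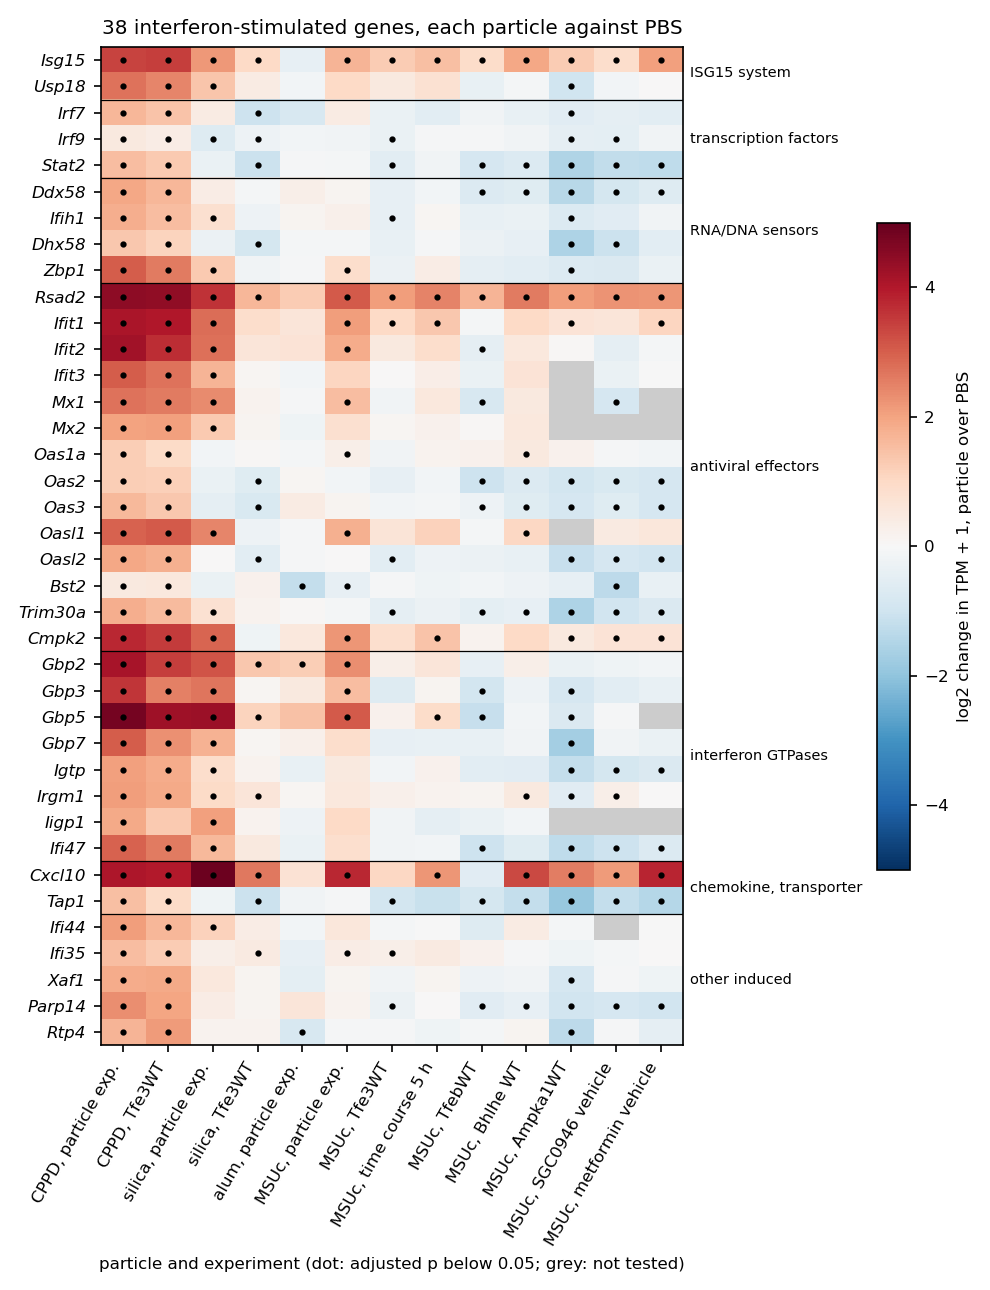
Heat map of the log2(TPM + 1) change of each of the 38 members (down the page, by role) in 13 particle contrasts against PBS (across). Dots mark an adjusted p under 0.05 and grey marks a gene not tested. The CPPD columns are red for every member, with 38 and 37 dots, while the MSUc columns mix both directions.

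CPPD and MSUc were then compared directly, gene by gene. In the particle experiment 32 of 38 members were higher with CPPD than with MSUc and 0 lower, where 23.6% of genes differed and 14.8% were higher with CPPD. In Tfe3WT 37 of 38 were higher and 0 lower, where 22% differed and 9.85% were higher. The member medians were 1.57 and 2.08, against all-gene medians of 0.08 and -0.03. With 1 library left out the particle-experiment count was 24 (without MSUc 2) to 37 (without MSUc 1). Every CPPD library was above every MSUc library for 31 members there, the exceptions being Cxcl10, Gbp5, Iigp1, Mx1, Mx2, Oasl1 and Rsad2, and for all 38 in Tfe3WT. The share of all genes separated in this way is again not given. These contrasts share libraries with those against PBS.

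Parp14 had 229, 237 and 189 TPM in CPPD libraries, against 68.3, 36.9 and 47.3 TPM in MSUc libraries (log2 change 2.12, SE 0.22, adjusted p = 7.18e-05). Stat2 had 69.9, 82.4 and 66.4 TPM in CPPD libraries, against 32.1, 17.95 and 19.6 TPM in MSUc libraries (log2 change 1.65, SE 0.22, adjusted p = 0.000327). In both genes every MSUc library lay below every CPPD library. Isg15 had 194, 229 and 186 TPM in CPPD libraries, against 124, 45.9 and 42.6 TPM in MSUc libraries (log2 change 1.68, SE 0.40, adjusted p = 0.00969), with MSUc 1 far above the other MSUc libraries and still below CPPD. Cxcl10 was the clearest exception, at 128, 187 and 120.4 TPM in CPPD libraries, against 359.8, 123 and 36.6 TPM in MSUc libraries (log2 change 0.27, SE 0.72, adjusted p = 0.824), where the groups overlapped. In Tfe3WT the same chemokine had 106, 164 and 51.5 TPM in CPPD libraries, against 11.8, 18.3 and 7.93 TPM in MSUc libraries (log2 change 2.91, SE 0.49, adjusted p = 0.000137), and the groups did not overlap. Also in Tfe3WT, Tap1 had 55.4, 66.5 and 45.5 TPM in CPPD libraries, against 13.1, 15.3 and 14.5 TPM in MSUc libraries (log2 change 1.88, SE 0.14, adjusted p = 9.4e-09), and Zbp1 had 48.8, 71.5 and 45.2 TPM in CPPD libraries, against 6.09, 6.68 and 6.47 TPM in MSUc libraries (log2 change 2.89, SE 0.21, adjusted p = 4.79e-09). Other log2 differences, all of them called, were Oas1a (0.95), Oasl2 (1.90), Irgm1 (1.59), Ifi47 (2.12), Usp18 (1.72), Zbp1 (2.15), Ddx58 (1.79), Irf9 (0.65), Tap1 (1.53) and Ifi35 (1.17) in the particle experiment and Trim30a (2.01), Oasl2 (2.31), Gbp3 (3.18), Gbp7 (2.69), Isg15 (2.20), Usp18 (1.97), Ifih1 (1.96), Stat2 (1.83), Irf9 (0.70), Parp14 (2.28) and Ifi35 (1.01) in Tfe3WT.

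**Figure D2:**
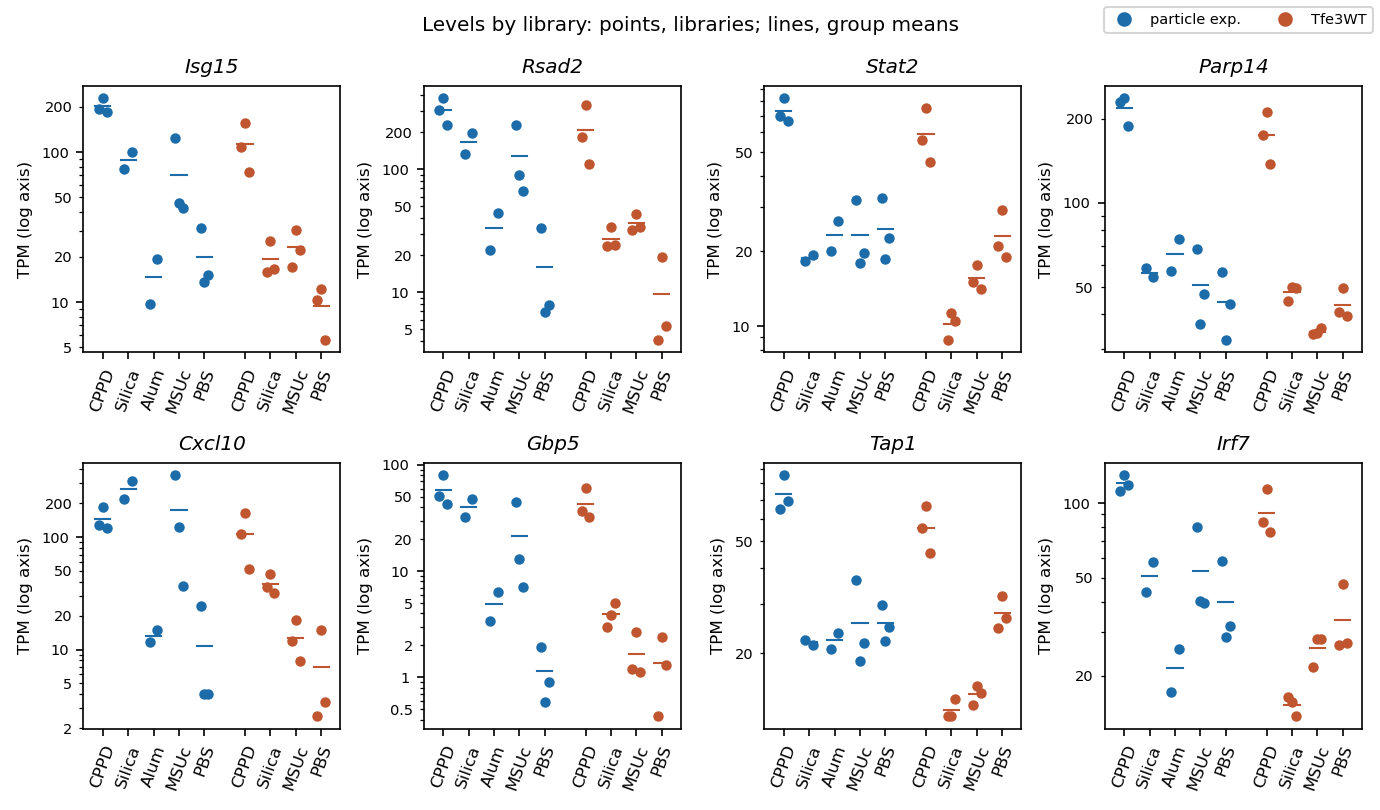
TPM on a log axis of 8 members in each library of the particle experiment and of Tfe3WT, by particle (CPPD, silica, alum where used, MSUc, PBS); points are libraries and lines are group means. Every CPPD library lies above every PBS library in all 8 genes, and MSUc 1 of the particle experiment lies above the other MSUc libraries.

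Silica moved part of the family. In the particle experiment 23 members rose and 1 fell (background 68.4% of genes changed; member median 1.07, all genes -0.25). The share of members called (24 of 38) was below that of all genes, and 35.7% of all genes called rose. The group held 2 libraries, and without silica 2 the count was 13. Cxcl10 had 217 and 315 TPM in silica libraries, against 24.4, 4.04 and 4.06 TPM in PBS libraries (log2 change 4.92, SE 0.81, adjusted p = 0.000181). Gbp5 had 32.5 and 47.99 TPM in silica libraries, against 1.92, 0.587 and 0.905 TPM in PBS libraries (log2 change 4.29, SE 0.57, adjusted p = 3.48e-05). Rsad2 had 133 and 197 TPM in silica libraries, against 33.5, 6.94 and 7.83 TPM in PBS libraries (log2 change 3.60, SE 0.62, adjusted p = 0.000242). All 3 genes were separated from PBS. Irf9 fell, with 25.8 and 21.98 TPM in silica libraries, against 44.1, 32.7 and 37.00 TPM in PBS libraries (log2 change -0.64, SE 0.14, adjusted p = 0.00135). With the libraries rescaled by median-of-ratios, 0 members fell, so the fall of Irf9 was not called there. Log2 changes of others that rose were Ifit1 (2.79), Isg15 (2.17), Usp18 (1.39), Gbp2 (3.16), Zbp1 (1.29), Ifih1 (0.79) and Ifi44 (1.17). In Tfe3WT 7 members rose and 8 fell with silica (background 65.8%; median 0.14, all genes -0.07), where 43.7% of all genes called rose.

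Of the Tfe3WT changes with silica, Cxcl10 had 36.2, 46.6 and 31.8 TPM in silica libraries, against 2.54, 15.01 and 3.42 TPM in PBS libraries (log2 change 2.62, SE 0.49, adjusted p = 8.92e-05). Tap1 had 11.9, 11.95 and 13.8 TPM in silica libraries, against 24.7, 31.97 and 26.8 TPM in PBS libraries (log2 change -1.08, SE 0.14, adjusted p = 1.54e-06), and Stat2 had 8.79, 11.3 and 10.5 TPM in silica libraries, against 21.01, 29.4 and 18.9 TPM in PBS libraries (log2 change -1.09, SE 0.19, adjusted p = 3.35e-05). The chemokine was thus up while the antigen transporter and the transcription factor were down, without overlap in any of them. Irf7 also fell (16.4, 15.7 and 13.7 TPM in silica libraries, against 26.6, 47.2 and 27.2 TPM in PBS libraries; log2 change -1.04, SE 0.22, adjusted p = 0.000328). Also up were Rsad2 (1.68), Isg15 (1.00), Gbp2 (1.34), Gbp5 (1.12), Irgm1 (0.61) and Ifi35 (0.45), and also down were Oas3 (-0.77) and Dhx58 (-0.89), as log2 changes. Neutrophil marker sums moved with silica: 257 to 357 TPM with silica and 47.5 to 111 TPM with PBS in the particle experiment, and 1424 to 1925 TPM with silica and 293 to 557 TPM with PBS in Tfe3WT. Their part in the result was not tested.

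Alum changed few members. With 2 alum libraries, 1 member rose and 2 fell (background 46.2%; median -0.07, all genes 0.08), where 58.6% of all genes called rose. The count was 6 without PBS 1, the PBS library in which Bst2, Rtp4 and Gbp2 were highest, and 1 without alum 1. Bst2 had 50.96 and 64.8 TPM in alum libraries, against 151, 125 and 127 TPM in PBS libraries (log2 change -1.21, SE 0.14, adjusted p = 3.11e-05). Rtp4 had 19.1 and 25.00 TPM in alum libraries, against 56.5, 30.6 and 34.02 TPM in PBS libraries (log2 change -0.81, SE 0.26, adjusted p = 0.025), and Gbp2 had 12.2 and 16.1 TPM in alum libraries, against 7.74, 4.22 and 4.93 TPM in PBS libraries (log2 change 1.22, SE 0.43, adjusted p = 0.0356). With the libraries rescaled by median-of-ratios, 0 rose and 4 fell, so the rise of Gbp2 was not called there.

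With MSUc some members rose and others fell. MSUc was set against PBS in 8 experiments, of which the time course enters at 5 hours. Members that rose and fell numbered 6 and 0 at 5 hours of the time course (background 49.3% of genes changed), 14 and 1 in the particle experiment (63%) and 4 and 7 in Tfe3WT (61.6%). They numbered 2 and 12 in TfebWT (45.5%), 6 and 7 in the WT of the Bhlhe experiment (60.5%) and 5 and 22 of 33 tested in the WT of the Ampkα1 experiment (63.7%). In vehicle-treated cells they were 5 and 14 of 35 in the SGC0946 experiment (55.4%) and 5 and 10 of 34 in the metformin experiment (53.9%). The share of members called was below that of all genes in each contrast except the WT of the Ampkα1 experiment. Among all genes called in these 8 contrasts, the share that rose ran from 27.6% (TfebWT) to 36.4% (vehicle cells of the metformin experiment). The member medians ran between -0.71 (WT of the Ampkα1 experiment; all genes -0.27) and 0.53 (particle experiment; all genes -0.29).

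These counts depended on how libraries were scaled. TPM put the median of all genes below 0 in each of these MSUc contrasts (-0.30 to -0.16), and median-of-ratios scaling brought it near 0. The share of rises among all genes called was then 48.9% to 55.1%. Under that scaling the members that rose and fell were 21 and 0 in the particle experiment, 7 and 1 in Tfe3WT, 5 and 6 in TfebWT, 6 and 3 in the WT of the Bhlhe experiment, 6 and 18 in the WT of the Ampkα1 experiment, 5 and 10 and 5 and 7 in the vehicle cells of the SGC0946 and metformin experiments, and 8 and 0 at 5 hours. For silica they were 27 and 0 in the particle experiment and 9 and 7 in Tfe3WT, while for CPPD they stayed at 38 and 0 and at 37 and 0.

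Isg15 and Rsad2 rose with MSUc in all 8 experiments, by log2 changes of 0.89 to 2.03 and of 1.72 to 3.06, and in all 8 under median-of-ratios scaling too. Cxcl10 rose in 6 (7 under that scaling), and Ifit1 and Cmpk2 in 5 each (5 and 6). On the other side Tap1, Stat2, Trim30a and Parp14 fell in 6 experiments each, while under that scaling Tap1 fell in 6, Stat2 in 5, Trim30a in 3 and Parp14 in 3, where Parp14 also rose in 1. Irf9 fell in 3 experiments, and in 0 under that scaling. The shares of all genes called the same way in so many experiments are not given here, so these counts have no background. Of all 38 members, 15 rose in at least 1 experiment, 25 fell in at least 1, 6 did both and 4 did neither. Over all 14051 genes tested in an experiment, 31.2% rose and 58.4% fell in at least 1, against 39.5% and 65.8% of the members. Under median-of-ratios scaling 22 members (57.9%) rose in at least 1 experiment, 20 (52.6%) fell in at least 1 and 8 did both, against 42.6% and 44.6% of all genes that rose and fell, so that the balance between rises and falls depended on the scaling.

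Marker genes moved with MSUc as well. Of the 8 macrophage markers 6 fell in the particle experiment, Tfe3WT, TfebWT, the WT of the Bhlhe and of the Ampkα1 experiment and the vehicle cells of the SGC0946 experiment, 5 in the vehicle cells of the metformin experiment and 4 at 5 hours, with list medians of -0.81 to -0.41; at most 2 rose in any of them. Stromal markers rose in 4 of 5 in the vehicle cells of the metformin experiment (median 1.05), in 3 of 4 in those of the SGC0946 experiment, and in 1 of 3 both in TfebWT and at 5 hours. Neutrophil markers rose in 3 of 4 in the vehicle cells of the metformin experiment and in 1 each in the particle, Bhlhe WT and SGC0946 vehicle contrasts. No stromal or neutrophil marker fell in these contrasts. Conventional dendritic markers rose in 2 of 2 tested in the particle experiment, TfebWT, both vehicle contrasts and at 5 hours. In the WT of the Ampkα1 experiment 2 of 3 rose. Plasmacytoid dendritic markers fell in 2 of 3 in the particle experiment and 2 of 2 in the SGC0946 vehicle cells. In TfebWT, the Ampkα1 WT, the metformin vehicle cells and at 5 hours 1 fell in each. The part of these markers in the member values was not tested.

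Within single experiments some members rose and others fell, as genes at large did. In TfebWT, Rsad2 had 49.2, 45.7 and 46.9 TPM in MSUc libraries, against 12.2 and 15.3 TPM in PBS libraries (log2 change 1.72, SE 0.15, adjusted p = 4.4e-06), while Tap1 had 11.3, 11.2 and 13.7 TPM in MSUc libraries, against 22.5 and 23.6 TPM in PBS libraries (log2 change -0.89, SE 0.17, adjusted p = 0.00176). Neither gene overlapped. In the WT of the Bhlhe experiment Isg15 had 26.7 and 31.3 TPM in MSUc libraries, against 7.03 and 6.67 TPM in PBS libraries (log2 change 1.93, SE 0.30, adjusted p = 0.000386) and Stat2 had 11.5 and 11.1 TPM in MSUc libraries, against 19.3 and 18.6 TPM in PBS libraries (log2 change -0.70, SE 0.12, adjusted p = 0.000782). In the vehicle cells of the metformin experiment Cxcl10 had 32.6, 43.6 and 43.3 TPM in MSUc libraries, against 2.18, 1.66 and 1.81 TPM in PBS libraries (log2 change 3.82, SE 0.28, adjusted p = 4.36e-07), while Trim30a had 14.9, 12.9 and 12.7 TPM in MSUc libraries, against 24.1, 23.1 and 22.1 TPM in PBS libraries (log2 change -0.73, SE 0.10, adjusted p = 7.23e-05). In the WT of the Ampkα1 experiment Stat2 had 7.27, 7.71 and 8.32 TPM in MSUc libraries, against 22.9, 24.7 and 24.8 TPM in PBS libraries (log2 change -1.52, SE 0.12, adjusted p = 5.28e-07), a fall without overlap. Other log2 changes there were Isg15 (1.28), Rsad2 (2.10), Ifit1 (0.69), Cmpk2 (0.48) and Cxcl10 (2.55) among those that rose and Trim30a (-1.54), Oasl2 (-1.15), Ifi47 (-1.28), Gbp7 (-1.69), Usp18 (-0.98), Ddx58 (-1.38), Dhx58 (-1.53), Irf9 (-0.45), Tap1 (-1.89), Parp14 (-0.97) and Rtp4 (-1.31) among those that fell. In the vehicle cells of the SGC0946 experiment they were Isg15 (0.89), Rsad2 (2.26), Cmpk2 (0.68), Cxcl10 (2.11) and Irgm1 (0.31) among those that rose and Bst2 (-1.32), Igtp (-0.88), Ddx58 (-0.88), Dhx58 (-1.09), Stat2 (-1.23), Irf9 (-0.47), Tap1 (-1.21) and Parp14 (-0.84) among those that fell.

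In the particle experiment and Tfe3WT the libraries spread more. Rsad2 had 231, 89.02 and 66.4 TPM in MSUc libraries, against 33.5, 6.94 and 7.83 TPM in PBS libraries (log2 change 3.06, SE 0.55, adjusted p = 0.000443) in the particle experiment, where MSUc 1 and PBS 1 were the highest of their groups. The count there was 22 without PBS 1, 10 without PBS 2 and 10 without MSUc 1. Bst2, the member that fell, had 112, 87.4 and 103 TPM in MSUc libraries, against 151, 125 and 127 TPM in PBS libraries (log2 change -0.41, SE 0.13, adjusted p = 0.0132). Under median-of-ratios scaling 0 members fell there, so this fall was not called. In Tfe3WT, Rsad2 had 31.8, 43.7 and 33.99 TPM in MSUc libraries, against 4.09, 19.5 and 5.32 TPM in PBS libraries (log2 change 2.09, SE 0.42, adjusted p = 0.000233), Tap1 had 13.1, 15.3 and 14.5 TPM in MSUc libraries, against 24.7, 31.97 and 26.8 TPM in PBS libraries (log2 change -0.91, SE 0.14, adjusted p = 1.75e-05), and the count of 11 was 6 without MSUc 1 and 6 without MSUc 3. In TfebWT the count of 14 was 9 without PBS 1. It was 0 when MSUc 3, whose title says MSUc and whose treatment field says PBS, was put with PBS.

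In the time course the first call came at 1 hour. At 10 and 30 minutes limma called 0 members (background 0.0567% and 0.68%; 1 and 1 member at an unadjusted p under 0.05). Here and below a background is a share at an adjusted p. Counts at an unadjusted p cannot be set against it, and no share of all genes at an unadjusted p is given. At 1 hour 1 member rose (background 3.28%): Cxcl10, with 19.1 and 16.4 TPM in MSUc libraries, against 7.38 and 8.10 TPM in PBS libraries (log2 change 1.10, SE 0.25, adjusted p = 0.0271). With any 1 of the 1 hour libraries left out, or with the 2 groups fitted alone, it was not called. At 2 hours 2 rose and 2 fell (background 33.5%). Cxcl10 had 25.9 and 23.2 TPM in MSUc libraries, against 7.49 and 7.32 TPM in PBS libraries (log2 change 1.60, SE 0.25, adjusted p = 0.000337) and Rsad2 21.5 and 37.1 TPM in MSUc libraries, against 15.4 and 12.4 TPM in PBS libraries (log2 change 0.98, SE 0.32, adjusted p = 0.03). Those that fell were Ifi47, with 10.4 and 9.86 TPM in MSUc libraries, against 19.1 and 17.8 TPM in PBS libraries (log2 change -0.80, SE 0.15, adjusted p = 0.0015), and Stat2 (-0.60). MSUc and PBS did not overlap in these 4 genes, and without PBS 1 the count was 2.

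At 5 hours Rsad2 had 76.2 and 92.1 TPM in MSUc libraries, against 16.05 and 12.3 TPM in PBS libraries (log2 change 2.49, SE 0.32, adjusted p = 3.39e-05). Cxcl10 had 33.9 and 61.7 TPM in MSUc libraries, against 7.60 and 10.8 TPM in PBS libraries (log2 change 2.22, SE 0.25, adjusted p = 1.13e-05), and Isg15 had 66.8 and 94.5 TPM in MSUc libraries, against 38.9 and 19.2 TPM in PBS libraries (log2 change 1.50, SE 0.46, adjusted p = 0.0168). The others that rose were Cmpk2 (1.44), Gbp5 (0.92) and Ifit1 (1.36). The member median was 0.15, against -0.23 for all genes.

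Within the time course the 2 libraries of each group differed in some members far more than in the median gene. Irf7 differed 3.89-fold to 4.81-fold between the 2 libraries of a group in all 10 groups, with levels from 167 to 1062 TPM, Ifi44 2.77-fold to 5.88-fold and Bst2 1.94-fold to 2.31-fold. In 9 members the median ratio over the groups was above 2, where the median over 10187 genes was 1.134. The share of all genes with a ratio above 2 is not given. The high library was number 2 in the MSUc groups and in PBS at 10 minutes, and number 1 in the later PBS groups. With those numbers crossed as pairs, an alternative chosen after seeing the data, 2 members rose and 11 fell at 2 hours, and 14 rose and 5 fell at 5 hours. The share of all genes called with that block is not given, and the backgrounds above do not apply to it. What distinguishes the libraries is not given in the labels and was not tested.

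**Figure D3:**
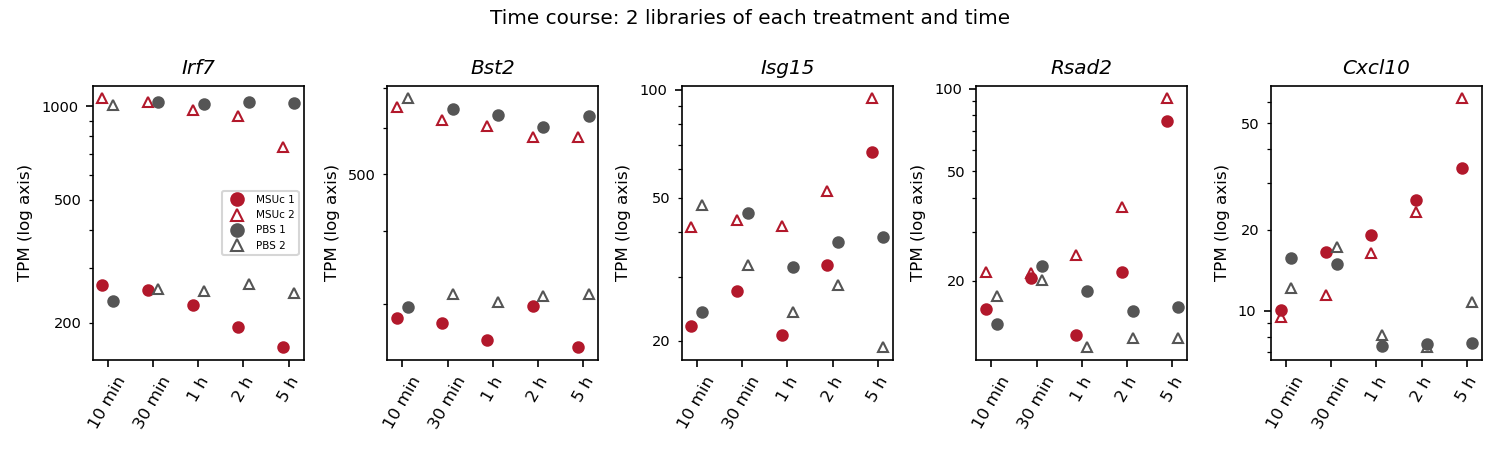
TPM of Irf7, Bst2, Isg15, Rsad2 and Cxcl10 at 10 and 30 minutes and 1, 2 and 5 hours; points are single libraries, MSUc 1 and 2 and PBS 1 and 2. Irf7 and Bst2 lie in a high and a low band at every time in both treatments, while Rsad2 and Cxcl10 do not overlap between MSUc and PBS at 2 and 5 hours.

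TFE3 is a lysosomal and stress transcription factor. In libraries labelled Tfe3KO, Bst2 was lower than in Tfe3WT under all 4 conditions. In silica it had 74.7, 78.5 and 76.5 TPM in libraries labelled Tfe3KO, against 116, 119 and 100.0 TPM in Tfe3WT libraries (log2 change -0.53, SE 0.11, adjusted p = 0.00345). With CPPD it had 92.5, 119.7 and 99.3 TPM in libraries labelled Tfe3KO, against 141, 149.5 and 127 TPM in Tfe3WT libraries (log2 change -0.42, SE 0.11, adjusted p = 0.0214). With MSUc it had 67.8, 74.9 and 65.5 TPM in libraries labelled Tfe3KO, against 88.2, 98.2 and 87.7 TPM in Tfe3WT libraries (log2 change -0.39, SE 0.11, adjusted p = 0.028), and in PBS 62.6, 71.7 and 78.1 TPM in libraries labelled Tfe3KO, against 84.1, 115 and 90.5 TPM in Tfe3WT libraries (log2 change -0.43, SE 0.11, adjusted p = 0.0454). The 2 genotypes did not overlap in any of the 4. The call with silica held under every alternative run, while those in PBS, MSUc and CPPD did not hold with some single libraries left out. Those 3 were also not called without the 4 libraries labelled Tfe3KO and numbered 1 (adjusted p = 0.135 in PBS, 0.069 with MSUc and 0.123 with CPPD), in which Xist was 57.1 to 114.7 TPM, against 1.17 to 6.28 TPM in the others so labelled and at most 0.243 TPM in Tfe3WT; this alternative was chosen after seeing the data.

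The other calls between these genotypes were Irf9 and Tap1 with MSUc. Irf9 had 34.9, 35.1 and 33.7 TPM in libraries labelled Tfe3KO, against 27.99, 29.9 and 29.03 TPM in Tfe3WT libraries (log2 change 0.25, SE 0.07, adjusted p = 0.0187), and Tap1 had 17.98, 18.7 and 27.4 TPM in libraries labelled Tfe3KO, against 13.1, 15.3 and 14.5 TPM in Tfe3WT libraries (log2 change 0.52, SE 0.14, adjusted p = 0.0221). In all, members higher and lower in libraries labelled Tfe3KO were 0 and 1 in PBS (background 2.37%), 2 and 1 with MSUc (10.7%; 6 and 1 under median-of-ratios scaling), 0 and 1 with CPPD (8.1%) and 0 and 1 with silica (12.5%). The count with MSUc was 0 without Tfe3WT MSUc 1 or Tfe3WT MSUc 3 and 1 without MSUc 3 of those labelled Tfe3KO. For the difference between genotypes in the response to a particle, limma called 0 members for MSUc, CPPD and silica (background 1.73%, 0.93% and 1.52%), with 3, 1 and 0 members at an unadjusted p under 0.05. With the replicate number as a block within each genotype, chosen after seeing the data, 1 was called for MSUc (Irf9, log2 difference 0.32, adjusted p = 0.0381) and 0 for CPPD and silica. Under CPPD, Isg15 had 102, 160.0 and 99.5 TPM in libraries labelled Tfe3KO and 108, 156 and 73.8 TPM in Tfe3WT, which overlap.

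In Tfeb-Tg macrophages, with the related factor TFEB in excess, limma called 0 members against TfebWT in PBS, with MSUc, or for the difference in response (background 0.717%, 3.48% and 0.1%). At an unadjusted p under 0.05 there were 7, 3 and 3. With MSUc, Rsad2 had 37.8, 42.3 and 48.1 TPM in Tfeb-Tg and 49.2, 45.7 and 46.9 TPM in TfebWT.

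In Bhlhe40-/- macrophages, which lack a basic helix-loop-helix repressor, limma called 0 members in PBS, with MSUc and for the response (background 0.0824%, 0.0165% and 0.00824%; 2, 1 and 0 at an unadjusted p under 0.05). In libraries labelled Bhlhe41-/-, for its close relative, the calls were also 0 in all 3 (background 2.76%, 1.33% and 0.132%; 17, 7 and 1 at an unadjusted p under 0.05). The backgrounds are at an adjusted p, so the 17, 7 and 1 cannot be set against them. At rest the member median was 0.56 in libraries labelled Bhlhe41-/-, against 0.01 for all genes, and the 2 libraries were uneven. Isg15 had 8.77 and 20.3 TPM in PBS libraries labelled Bhlhe41-/-, against 7.03 and 6.67 TPM in WT PBS libraries. Rsad2 had 4.88 and 34.2 TPM, against 8.52 and 5.17 TPM in WT. Bhlhe41-/- PBS 2 was high in both genes and PBS 1 was not. Without PBS 1 the count moved, but that fit holds 1 library of the group and has no share of all genes beside it.

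In the Ampkα1 experiment members differed between genotypes both ways, in shares not far above those of all genes. Ampkα1 is a catalytic subunit of AMPK, the kinase that senses low cellular energy. In libraries labelled Ampkα1-/- 2 members were higher and 15 lower at rest (33 tested; background 47.7%), and 8 higher and 18 lower with MSUc (71.8%). Under median-of-ratios scaling they were 2 and 21 at rest and 6 and 22 with MSUc. Among all genes called, 71.0% were higher at rest and 71.9% with MSUc (50.0% and 46.4% under that scaling). The member medians were -0.39 and -0.40, against all-gene medians of 0.15 and 0.39. Stromal marker sums (Col1a1, Col1a2, Col3a1, Dcn, Pdgfra) were 2369 to 2980 TPM in libraries labelled Ampkα1-/- and 66.8 to 217 TPM in WT with MSUc, and 834 to 1359 TPM and 77.3 to 143 TPM at rest. Macrophage marker sums were 8393 to 10531 TPM in libraries labelled Ampkα1-/- and 29294 to 35123 TPM in WT with MSUc, and neutrophil marker sums 334 to 391 TPM and 11.4 to 64.9 TPM. The part of these cell types in the member values was not tested.

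At rest Tap1 had 12.6, 14.8 and 12.5 TPM in libraries labelled Ampkα1-/-, against 30.8, 29.1 and 32.7 TPM in WT libraries (log2 change -1.16, SE 0.18, adjusted p = 0.000234). Oas3 had 1.91, 1.78 and 2.36 TPM in libraries labelled Ampkα1-/-, against 6.63, 6.19 and 7.69 TPM in WT libraries (log2 change -1.38, SE 0.17, adjusted p = 3.68e-05). Xaf1 went the other way, with 8.72, 10.6 and 10.03 TPM in libraries labelled Ampkα1-/-, against 3.23, 3.07 and 2.74 TPM in WT libraries (log2 change 1.42, SE 0.12, adjusted p = 1.46e-06). None of the 3 overlapped. With MSUc, Isg15 had 5.14, 0.90 and 5.15 TPM in libraries labelled Ampkα1-/-, against 16.97, 25.2 and 22.5 TPM in WT libraries (log2 change -2.42, SE 0.40, adjusted p = 0.000158). Rsad2 had 0.655, 1.14 and 1.30 TPM in libraries labelled Ampkα1-/-, against 6.72, 8.98 and 9.03 TPM in WT libraries (log2 change -2.19, SE 0.25, adjusted p = 7.77e-06). Ddx58 was higher instead, with 13.3, 13.3 and 12.6 TPM in libraries labelled Ampkα1-/-, against 3.77, 3.53 and 3.55 TPM in WT libraries (log2 change 1.61, SE 0.09, adjusted p = 1.74e-08). Gbp2 was higher too, with 16.4, 19.4 and 19.9 TPM in libraries labelled Ampkα1-/-, against 3.46, 5.69 and 5.57 TPM in WT libraries (log2 change 1.75, SE 0.18, adjusted p = 3.26e-06). Other log2 differences at rest were Ifi44 (1.32), Isg15 (-1.10), Oasl2 (-0.85), Gbp5 (-0.88), Gbp7 (-0.48), Zbp1 (-0.73), Dhx58 (-0.91), Irf7 (-0.68) and Stat2 (-0.48). With MSUc they were Ifi44 (2.64), Xaf1 (1.62), Gbp3 (0.66), Gbp7 (0.62), Irgm1 (0.50), Ifi47 (1.15), Cmpk2 (-1.34), Dhx58 (-0.63), Irf7 (-1.09) and Irf9 (-0.88); that of Irgm1 was -0.0005 under median-of-ratios scaling.

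The response to MSUc itself differed between the genotypes in 13 members, 9 with a higher and 4 with a lower log2 response in libraries labelled Ampkα1-/- (background 50.6%; 7 and 9 under median-of-ratios scaling). Among all genes called for it, 68.5% had a higher response (45.8% under that scaling). Rsad2 had 0.655, 1.14 and 1.30 TPM with MSUc and 1.62, 0.361 and 0.688 TPM with PBS in libraries labelled Ampkα1-/-, against 6.72, 8.98 and 9.03 TPM with MSUc and 0.695, 1.31 and 1.51 TPM with PBS in WT (log2 difference of responses -1.95, SE 0.35, adjusted p = 0.000922). Its rise with MSUc was seen in the WT libraries and not in those labelled Ampkα1-/-, which overlapped. Ddx58 had 13.3, 13.3 and 12.6 TPM with MSUc and 9.34, 10.2 and 9.73 TPM with PBS in libraries labelled Ampkα1-/-, against 3.77, 3.53 and 3.55 TPM with MSUc and 10.4, 11.3 and 11.4 TPM with PBS in WT (log2 difference of responses 1.77, SE 0.12, adjusted p = 2.07e-06). It was higher with MSUc in libraries labelled Ampkα1-/- and lower with MSUc in WT.

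**Figure D4:**
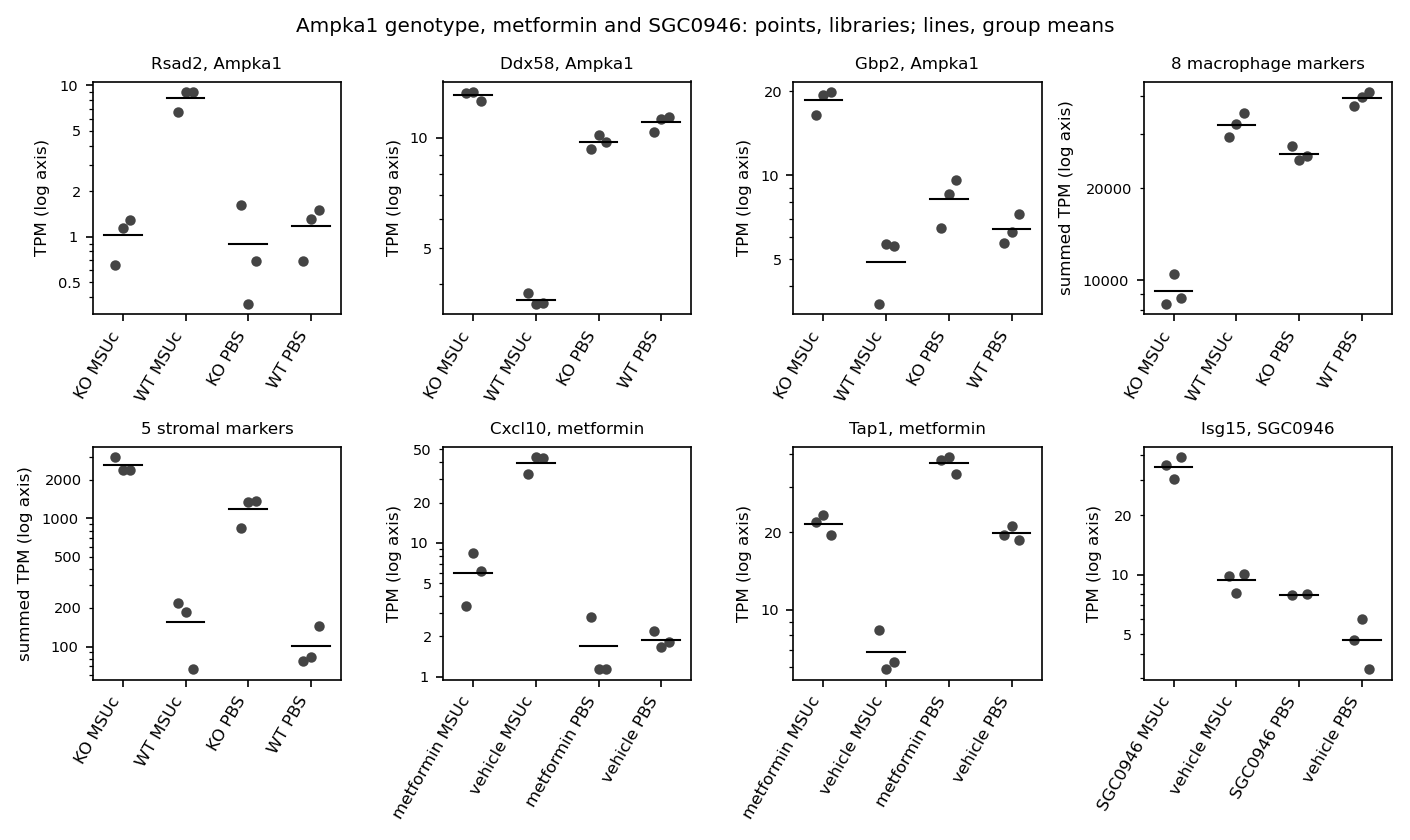
TPM by library of members in the Ampkα1 experiment (Rsad2, Ddx58, Gbp2, with the summed 8 macrophage and 5 stromal markers), of Cxcl10 and Tap1 in the metformin experiment and of Isg15 in the SGC0946 experiment; points are libraries and lines are group means. Stromal markers are high in both groups labelled Ampkα1-/-, and Cxcl10 with MSUc is low under metformin.

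SGC0946 blocks DOT1L, the methyltransferase of histone H3 lysine 79. In PBS limma called 0 members with the drug (background 0.673%; 9 at an unadjusted p under 0.05, all of them higher). That background is at an adjusted p, so the 9 cannot be set against it. With MSUc 3 members were higher and 0 lower (background 16.6%; member median 0.19, all genes -0.03). Isg15 had 35.9, 30.3 and 39.1 TPM in SGC0946 MSUc libraries, against 9.89, 8.12 and 10.1 TPM in vehicle MSUc libraries (log2 change 1.80, SE 0.18, adjusted p = 0.000318). Bst2 had 78.6, 70.6 and 68.4 TPM in SGC0946 MSUc libraries, against 34.2, 28.2 and 32.1 TPM in vehicle MSUc libraries (log2 change 1.18, SE 0.18, adjusted p = 0.00279), and Cxcl10 had 24.7, 30.1 and 21.2 TPM in SGC0946 MSUc libraries, against 11.5, 15.4 and 5.10 TPM in vehicle MSUc libraries (log2 change 1.28, SE 0.32, adjusted p = 0.0222). The groups did not overlap in these 3 genes. For the difference in response to MSUc limma called 0 members (background 0.0325%; 3 at an unadjusted p under 0.05). Isg15 at rest was 7.86 and 7.99 TPM with SGC0946 and 4.71, 6.01 and 3.35 TPM with vehicle.

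Metformin is an antidiabetic drug that inhibits mitochondrial respiration and activates AMPK. Under it a smaller share of the members than of all genes was called, and these members went both ways. In PBS 4 were higher and 2 lower than with vehicle (background 39.5%), and with MSUc 9 were higher and 3 lower (43.6%; 5 and 3 under median-of-ratios scaling). Among all genes called, 58.8% were higher in PBS and 67.9% with MSUc (50.0% and 47.7% under that scaling). The count with MSUc, 12, was 6 without vehicle MSUc 2, 6 without vehicle MSUc 3 and 7 without metformin MSUc 2. Cxcl10 with MSUc had 3.40, 8.34 and 6.21 TPM in metformin libraries, against 32.6, 43.6 and 43.3 TPM in vehicle libraries (log2 change -2.60, SE 0.28, adjusted p = 2.81e-05). Tap1 went the other way, with 21.9, 23.4 and 19.5 TPM in metformin libraries, against 8.33, 5.91 and 6.30 TPM in vehicle libraries (log2 change 1.53, SE 0.12, adjusted p = 4.27e-06) with MSUc. In PBS, Tap1 had 38.1, 38.9 and 33.6 TPM in metformin libraries, against 19.5, 21.1 and 18.6 TPM in vehicle libraries (log2 change 0.87, SE 0.12, adjusted p = 0.000177), and Rsad2 had 17.4, 9.34 and 9.52 TPM in metformin libraries, against 5.68, 5.47 and 4.35 TPM in vehicle libraries (log2 change 1.04, SE 0.20, adjusted p = 0.00155). Parp14 in PBS was lower, with 13.8, 11.1 and 12.2 TPM in metformin libraries, against 24.1, 21.6 and 20.95 TPM in vehicle libraries (log2 change -0.80, SE 0.11, adjusted p = 0.000185). The groups did not overlap in any of these. Other log2 changes with MSUc were Oas1a (0.61), Usp18 (1.39), Gbp3 (0.63), Stat2 (0.69) and Xaf1 (0.84) among those higher and Cmpk2 (-0.90) and Parp14 (-0.35) among those lower.

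The response to MSUc differed under metformin in 3 members, 2 with a higher and 1 with a lower log2 response (background 12.2%; 2 and 2 under median-of-ratios scaling). Cxcl10 had 3.40, 8.34 and 6.21 TPM with MSUc and 2.80, 1.15 and 1.14 TPM with PBS under metformin, against 32.6, 43.6 and 43.3 TPM with MSUc and 2.18, 1.66 and 1.81 TPM with PBS under vehicle (log2 difference of responses -2.46, SE 0.39, adjusted p = 0.00238). MSUc lay above PBS under both, by less under metformin. Trim30a and Tap1 had a higher log2 response under metformin, by 0.76 and 0.67. Trim30a had 15.3, 18.8 and 16.3 TPM with MSUc and 16.8, 15.7 and 16.7 TPM with PBS under metformin, against 14.9, 12.9 and 12.7 TPM with MSUc and 24.1, 23.1 and 22.1 TPM with PBS under vehicle. Its 2 groups overlapped under metformin and not under vehicle. Macrophage marker sums were 13001 to 15517 TPM under metformin and 19278 to 22331 TPM under vehicle with MSUc, and stromal marker sums 156 to 341 TPM and 477 to 608 TPM; their part in the result was not tested. In PBS, macrophage marker sums were 11466 to 13038 TPM under metformin and 23174 to 25984 TPM under vehicle, with 7 of 8 markers lower and 1 higher (list median -1.17, against -0.75 with MSUc). Stromal sums were 69.6 to 215 TPM under metformin and 173 to 360.1 TPM under vehicle in PBS, with 3 of 5 lower, and neutrophil sums 2.95 to 14.9 TPM and 16.2 to 73.99 TPM, with 1 of 4 lower.

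The rest of the interferon pathway was read from lists chosen with earlier results of these data known. Their counts stand beside the 52.4% of all genes that changed with CPPD in the particle experiment and the 60.2% in Tfe3WT; 16.6% and 18.5% of all genes rose. No interferon gene reached the level to be tested: Ifnb1 had 54 reads in 26 of the 115 libraries, at most 8 reads in 1 library (1.23 TPM, Tfe3KO silica 3), Ifng had 33 reads in 11 libraries, and Ifna1, Ifna2, Ifna4, Ifne and Ifnl3 had 0 reads in any library. Among receptors and kinases CPPD raised 3 and lowered 3 of 8 in the particle experiment (3 and 4 in Tfe3WT). Jak2, a kinase of the gamma receptor, averaged 54.5 ± 7.85 TPM in CPPD libraries and 14.1 ± 1.89 TPM in PBS libraries (log2 change 1.88, SE 0.21, adjusted p = 2e-05), where ± gives the SD over 3 libraries a group here and below. Ifngr1, a chain of that receptor, averaged 82.6 ± 3.29 TPM in CPPD libraries and 151 ± 11.6 TPM in PBS libraries (log2 change -0.86, SE 0.12, adjusted p = 0.000103). Kinase and receptor chain thus moved in opposite directions. Of the other STAT and IRF factors 3 rose and 2 fell of 7 (3 and 3 in Tfe3WT). Irf1, a factor induced by interferon gamma, averaged 177 ± 33.9 TPM in CPPD libraries and 38.97 ± 4.61 TPM in PBS libraries (log2 change 2.15, SE 0.18, adjusted p = 2.17e-06). Irf8, a myeloid lineage factor, changed by -0.72.

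The genes of interferon induction (sensors, adaptors, Toll-like receptors) rose in 8 and fell in 4 of 14 cases with CPPD, in Tfe3WT in 8 and 4; Tlr9, a receptor for DNA, changed by -1.80 and -1.76. Of the brakes on the pathway 6 rose and 2 fell of 10 (7 and 4 of 11 in Tfe3WT). Socs3, an inhibitor of JAK kinases, averaged 97.1 ± 41.96 TPM in CPPD libraries and 3.44 ± 0.593 TPM in PBS libraries (log2 change 4.39, SE 0.31, adjusted p = 4.15e-07). Further interferon-induced genes outside the 38 rose in 29 and fell in 1 of 41 with CPPD in the particle experiment, and in 29 and 0 in Tfe3WT. Ifi205, a cytosolic DNA-binding protein of the mouse, averaged 38.7 ± 12.7 TPM in CPPD libraries and 0.652 ± 0.567 TPM in PBS libraries (log2 change 4.59, SE 0.52, adjusted p = 2.08e-05). With MSUc the same list rose in 9 and fell in 9 in the particle experiment, and in 3 and 15 in Tfe3WT, which is 18 of 41 called in each where 63% and 61.6% of all genes were called, on a scale whose all-gene median was -0.29 and -0.20. Between CPPD and MSUc, 28 and 34 of them were higher with CPPD and 0 lower in either experiment.

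Chromatin regions that the authors list as gained or lost under MSUc were counted by the authors' nearest gene. Gained TFEB peaks were nearest to 6 of the 38 members (15.8%, against 12.9% of all 24940 genes), gained TFE3 peaks to 2 (5.26%, against 11.3%), and gained and reduced DOT1L peaks to 3 each (7.89%, against 10% and 10.9%). Gained H3K27ac regions were nearest to 2 members (5.26%, against 4.71%). In numbers of regions, those near a member were 4 of 4756 gained and 3 of 4208 reduced DOT1L peaks, 2 of 4446 gained TFE3 peaks, 9 of 5667 gained TFEB peaks and 2 of 2081 gained H3K27ac regions. H3K27ac marks active promoters and enhancers. None lay near a member among 1838 reduced H3K27ac regions or among 1168 gained and 868 reduced regions of H3K4me3, a promoter mark, for which the shares of all genes were 4.46%, 2.7% and 2.05%. Both H3K27ac regions are in the Ifit cluster. The region at Ifit1 (chr19:34639836-34641836, mm10), which holds the Ifit1 promoter shown above, had 149.8 and 144 tags per 10000000 in MSUc samples, against 55.5, 49.9 and 81.9 in PBS samples; in the authors' deposited table its log2 change was 1.18 with an adjusted p of 0.00714. The region by Ifit3 (chr19:34576226-34578226) had 68.6 and 64.8 tags per 10000000 in MSUc samples, against 23.4, 18.3 and 27.9 in PBS samples, with a log2 change of 1.47 and an adjusted p of 0.0146 in the authors' deposited table. Rsad2 was the nearest gene of 3 gained TFEB peaks, 1 TFE3 peak and 1 DOT1L peak. The TFE3 peak (chr12:26439472-26439703) and a TFEB peak (chr12:26439470-26439705) overlap and lie 16.9 kb from its start.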

How the data were processed

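Poly-A RNA of mouse macrophages was sequenced in strand-specific dUTP libraries, per the labels' protocols. Reads were mapped to mm10 with STAR and counted with HOMER, per the submitters' processing notes, which give no versions. The authors deposited 8 tables whose headers name no unit. The values behave as TPM, so the deposited values are read as TPM here: each gene's values are whole multiples of what 1 read is worth (tolerance 0.15 of a read), which gave back 2119000 to 22114000 reads per library. Reads set the precision of low genes, and counting error is only part of the spread between libraries. The deposited log2 changes, adjusted p-values and tag signal of the chromatin tables (tags in 2000 bp, scaled to 10000000) are the authors' own; distances of peaks to genes are theirs too. Of the expression columns 2 matched no sample and were not used, and no 2 libraries were identical.

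Genes that reached 1 TPM in at least the number of libraries of an experiment's smallest group were fitted with limma 3.58.1 in R 4.3.3 (trend, all groups of the experiment in one fit, log2(TPM + 1)), with Benjamini-Hochberg adjustment over all genes tested, in 44 contrasts. Tables were handled with Python 3.11.15, pandas 2.3.3 and numpy 2.4.6. The fit was tested on simulated data. The members and lists were chosen with earlier results of these data known. Values of every library are given for up to 2 called members of each role group with the smallest p and for members called against the majority; Cmpk2, Gbp5, Iigp1, Irf9 and Bst2 with CPPD, Cxcl10 between CPPD and MSUc, and the genes shown in contrasts without a call were added after their values were seen. Alternatives were a pseudocount of 0.1, no filter, median-of-ratios scaling, the compared groups alone, a replicate block and each library left out.

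Same-numbered libraries were checked for pairing by the correlation of their deviations from the group means. With 3 pairs, every correlation was above 0.1 for Tfe3WT CPPD and PBS (0.118 to 0.186) and for Tfe3WT CPPD and MSUc (0.135 to 0.182). Within Tfe3KO it was above 0.1 for CPPD and PBS (0.169 to 0.291) and for silica and PBS (0.116 to 0.226), groups that enter the differences in response, while between the 2 genotypes no comparison had every correlation above 0.1. A block within each genotype was therefore added after seeing the data. In the time course, MSUc and PBS had a correlation of 0.481 at 10 minutes. At 30 minutes and 1, 2 and 5 hours it was -0.447, -0.552, -0.487 and -0.417. The main fit took no account of this, and the crossed block was added after seeing the data. The labels conflict in places. The genotype field of the 12 Tfe3WT samples says Tfe3KO, and titles and table columns, which say WT, were followed. The treatment field of TfebWT MSUc 3 says PBS, and its title was followed. In the particle experiment the labels list 3 alum and 2 silica samples, while the table has 2 alum and 3 silica columns. Columns were matched to samples of the same number, so alum 3 and the third silica column were not used, and a shift in numbering between labels and columns cannot be told from the files.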

Additional observations from a re-analysis of the deposited data

Results flagged for a closer look

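In 2 experiments the response of members to MSUc differed between genotypes or drugs by a test of the difference itself (limma, adjusted over all genes). In the Ampkα1 experiment 13 of 33 members did so, a share below the 50.6% of all genes. Of these 9 had a higher and 4 a lower response, and 7 and 9 under median-of-ratios scaling. The log2 response was lower in libraries labelled Ampkα1-/- than in WT for Rsad2 (-1.95), Bst2 (-1.44), Cmpk2 (-0.85) and Irf9 (-0.72). It was higher for Ddx58 (1.77), Ifi47 (1.48), Gbp2 (1.44), Ifi44 (1.32), Gbp7 (1.10), Gbp3 (1.02), Tap1 (0.97), Irgm1 (0.53) and Oasl2 (0.49). In the same libraries stromal, macrophage and neutrophil marker sums differed between the genotypes, by the values given above. In the metformin experiment 3 of 34 members did so, against 12.2% of all genes (2 higher and 2 lower under that scaling), with a lower log2 response under metformin for Cxcl10 (-2.46) and a higher one for Trim30a (0.76) and Tap1 (0.67). No group held 4 or more libraries, so single libraries were not tested for standing apart.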

How the results depend on the processing

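Of 397 member changes called over 44 contrasts, 4503 values were recomputed under alternatives: 4068 kept their direction and side of the threshold, 433 kept their direction and were no longer called, and 2 changed sign under median-of-ratios scaling, Oas3 with MSUc in TfebWT (0.0146, adjusted p = 0.929) and Irgm1 between libraries labelled Ampkα1-/- and WT with MSUc (-0.0005, adjusted p = 0.999). The counts for CPPD against PBS were 38 in the particle experiment and 37 or 38 in Tfe3WT throughout. With 1 library left out, the number of members called was 0 for MSUc at 1 hour and 2 to 4 at 2 hours, 13 to 26 for silica and 1 to 6 for alum in the particle experiment, 6 to 12 for MSUc in Tfe3WT and 9 to 13 in TfebWT. For Tfe3KO against Tfe3WT it was 0 to 1 in PBS, 0 to 3 with MSUc, 0 to 1 with CPPD and 1 to 2 with silica. It was 6 to 11 for metformin against vehicle with MSUc. For libraries labelled Bhlhe41-/- the counts against WT in PBS and for the difference in response moved without Bhlhe41-/- PBS 1. That fit holds 1 library of the group, so its counts are not given.

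With the compared groups fitted alone the count was 0 at 1 hour, 2 at 2 hours, 20 for MSUc in the WT of the Bhlhe experiment, and, for Tfe3KO against Tfe3WT, 0 in PBS, 5 with MSUc, 0 with CPPD and 2 with silica. With no filter it was 1 for alum, 0 for Tfe3KO in PBS and 1 for SGC0946 in PBS. Median-of-ratios scaling gave 7 for Tfe3KO with MSUc. Without the 4 Tfe3KO libraries numbered 1 it was 0 in PBS and 0 with CPPD. With TfebWT MSUc 3 in PBS it was 0 in TfebWT. The cause of these moves was not tested.

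With the replicate number as a block (replicate block), the count was 17 for MSUc in Tfe3WT, 7 and 4 for Tfe3KO with MSUc and silica and 1 for the Tfe3 difference in response to MSUc, where same-numbered libraries of the 2 genotypes share numbers only. As a block within each genotype it gave 18 for MSUc in Tfe3WT, 1 for the difference in response to MSUc and 0 for CPPD and silica, and with CPPD, where numbers pair, it added Iigp1. No other count moved by over 1.5 times. The crossed block of the time course gave 13 at 2 hours and 19 at 5 hours. Shares of all genes called with these blocks are not given. Groups of 2 or 3 libraries, and levels near 1 TPM in Iigp1, Mx2, Ifi44 and Gbp5, limit what could be called.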
